A study of Mus musculus with 5 samples.

Results

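RGD-binding integrin chains were followed in primary mouse lung fibroblasts, the matrix-producing mesenchymal cells of the lung, after vehicle or TGF-β1. The 9 chains were taken by name from the 55335 genes of the count table. They are the α chains Itga5, Itga8, Itgav and Itga2b and the β chains Itgb1, Itgb3, Itgb5, Itgb6 and Itgb8. The cells came from mouse lung and were grown in vitro. The 2 control libraries received vehicle, and the 3 TGF-β1 libraries came from cells exposed to the cytokine for 24 h (5 ng/mL). The sources used here give no strain, age, sex or passage. They do not state whether libraries of a group came from separate animals, although the series calls them independent biological replicates. The p-values therefore measure the spread between these 5 libraries, which may be technical. Messenger RNA was measured, not the protein at the cell surface.

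Integrins are cell-surface receptors made of 1 α and 1 β chain that tie the extracellular matrix to the actin cytoskeleton. One family of them recognises the tripeptide arginine-glycine-aspartate (RGD) in ligands such as fibronectin. The α5 and α8 chains pair with β1, αv pairs with any of the listed β chains, and αIIb (Itga2b) pairs with β3. TGF-β is secreted bound to a latency-associated peptide that itself carries RGD, and αv integrins, αvβ6 and αvβ8 above all, release or expose the active cytokine by binding that site. In lung fibrosis, fibroblasts and epithelium are both known to activate TGF-β in this way.

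The coding stretches around 1 RGD site each are shown for 5 ligands, because RGD is the sequence that the 9 chains have in common as their target. They were read from the longest complete coding sequence of each gene in GENCODE M21 (GRCm38), with 15 bases on either side, and capitals mark the 9 bases that encode RGD.
Fn1 (fibronectin, chromosome 1): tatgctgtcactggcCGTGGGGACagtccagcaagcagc
Npnt (nephronectin, chromosome 3): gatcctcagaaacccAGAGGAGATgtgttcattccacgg
Spp1 (osteopontin, chromosome 5): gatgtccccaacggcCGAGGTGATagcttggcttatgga
Tgfb1 (latent TGF-β1, chromosome 7): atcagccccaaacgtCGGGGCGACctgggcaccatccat
Tgfb3 (latent TGF-β3, chromosome 12): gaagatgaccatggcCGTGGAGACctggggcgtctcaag
The Tgfb1 site lay at codon 244 of 390 and the Tgfb3 site at codon 261 of 412, counted from the start codon. Fn1 held 2 in-frame RGD triples, at codons 1614 and 2181 of 2477, and the first is shown. The latency peptide of Tgfb2 held no such triple in its coding sequence. Of 22 genes listed as ligands of these integrins, 18 held at least 1 in-frame RGD triple (81.8%), against 1565 of 21584 genes with a complete coding sequence (7.25%). The ligands were listed for binding RGD-binding integrins, so a high share follows from that choice and is not a finding. The 4 without were Tnc, Ccn1, Ccn2 and Ccn3, and the CCN proteins are known to bind αv integrins through other residues. A match is a description of the letters and not a proof of binding.

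The libraries held 34283288 to 43163967 counts. All 8 fibroblast markers on a fixed list were detected, among them Col1a1, the main fibrillar collagen chain, and summed to 24295 to 25324 normalized CPM (counts scaled to library size, after TMM scaling) in controls and 30766 to 31001 with TGF-β1. Of these markers 3 rose and 5 fell, with a median log2 fold change of −0.71. The abundant collagen chains Col1a1 and Col1a2 made up most of the sum and rose by log2 fold changes of 0.69 and 0.13. Pdgfra, a PDGF receptor, fell by 2.02 and Dcn, the proteoglycan decorin, by 1.90 on the log2 scale. Other cell types were also represented. The 8 mesothelial markers summed to 1386 and 1471 CPM in the controls and to 168 to 187 CPM with TGF-β1, and all 8 fell. The 8 leukocyte markers summed to 2273 and 2341 CPM in the controls and to 1377 to 1411 CPM with TGF-β1, most of it Lyz2, the macrophage lysozyme, with Cd3e, a T-cell gene, at 0. Of the 6 leukocyte markers tested, 5 fell and 1, Ptprc (CD45), rose by a log2 fold change of 0.29. The 6 endothelial markers summed to 2.53 to 3.69 CPM in any library. Fewer cells of a type and less RNA per cell cannot be told apart in such bulk samples, and the part of these cells in the integrin results was not tested.

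The RGD-binding chains changed in both directions with TGF-β1. Itga5, Itgav, Itgb1, Itgb3 and Itgb5 rose, Itga8 and Itgb8 fell, Itga2b did not pass, and Itgb6 had no count in any library. Of the 8 chains tested, 7 passed an adjusted p of 0.05 in edgeR's quasi-likelihood test, where 44.5% of all 16380 genes tested did (21.3% higher and 23.2% lower). Among 15 other integrin chains tested, 12 passed. At least 2-fold changes were called for 4 of the 8 chains, against 10.9% of genes. The ranges of the groups did not overlap for 7 of the 8 chains, against 64.6% of genes. The median log2 fold change of the 8 chains was 0.54 beside 0.00 over all genes. Of all calls 47.9% were increases with TMM scaling and 32.1% with library totals, and the 7 called chains kept their direction and call under both.

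**Figure D1:**
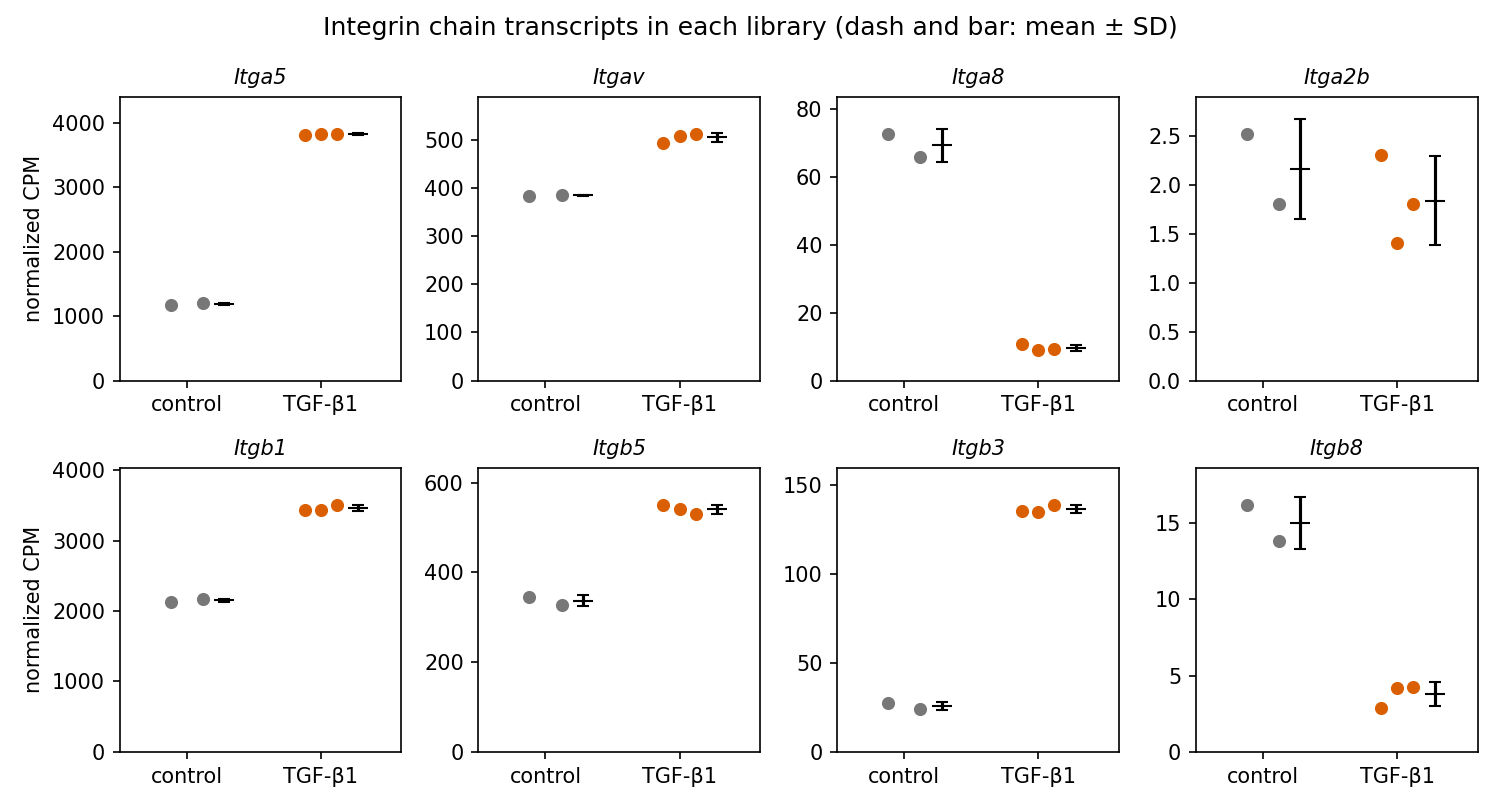
Normalized CPM (vertical axes, from 0, a different scale in each panel) of the 8 detected chains in the control (grey) and TGF-β1 (orange) libraries. Each point is 1 library, and the dash with its bar is the mean ± SD (n = 2 and n = 3). The groups stand apart in every panel except Itga2b.

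Itga5 encodes α5, which with β1 forms the classical fibronectin receptor (ENSMUSG00000000555, chromosome 15, 103344286 to 103366763 of GRCm38). Its level was 1175 and 1199.6 CPM in the controls and 3814, 3829 and 3832 CPM in the TGF-β1 libraries. Replicates thus lay close together, and every TGF-β1 library was far above both controls. The log2 fold change was 1.69 (SE 0.019, adjusted p = 3.79e-11), or 3.22-fold, and 1.72% of tested genes had a higher one.

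Itgav encodes αv, the partner of all 5 listed β chains (ENSMUSG00000027087, chromosome 2, 83724397 to 83806916). It stood at 383 and 385 CPM in the controls and at 493, 508 and 512 CPM with TGF-β1. The groups did not overlap, but the step was the smallest of the 7 called chains, with a log2 fold change of 0.39 (SE 0.028, adjusted p = 3.54e-06), or 1.31-fold. Its exons overlap Gm13684 on the opposite strand, a gene with no count here.

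Itga8 encodes α8, a β1 partner of smooth muscle, myofibroblasts and alveolar fibroblasts that binds nephronectin (ENSMUSG00000026768, chromosome 2, 12106632 to 12301922). The controls held 72.8 and 65.9 CPM and the TGF-β1 libraries 10.7, 8.997 and 9.46 CPM. It was lower in every TGF-β1 library, with a log2 fold change of −2.83 (SE 0.081, adjusted p = 8.61e-09), or 7.12-fold. Of all tested genes, 1.18% had a lower fold change. Its antisense neighbour E030013I19Rik averaged 0.44 CPM over all libraries beside 33.6 CPM for Itga8, and whether reads were counted by strand is not given in the sources used here. Of 8 mural markers (smooth muscle and pericyte), 5 fell, 1 rose and 2 did not pass, with sums of 2927 and 3030 CPM in controls and 2397 to 2434 CPM with TGF-β1.

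Itga2b encodes αIIb, the platelet and megakaryocyte chain (ENSMUSG00000034664, chromosome 11, 102453297 to 102470122). It had 90 and 76 counts in the controls and 93, 59 and 70 with TGF-β1, or 2.53 and 1.81 against 2.31, 1.40 and 1.81 CPM. The groups overlapped, and no difference was detectable at this depth (log2 fold change −0.23, SE 0.27, adjusted p = 0.531). Of 7 other platelet markers 4 were at 0 in all libraries (Ppbp, Gp1ba, Gp6 and Gp9). Pf4 had counts in every library and fell (log2 fold change −1.02, adjusted p = 0.011). The 7 summed to 2.19 and 5.37 CPM in the controls and to 1.54 to 2.25 CPM with TGF-β1. Gp1bb made up most of the 5.37 CPM, with 130 counts in control replicate 2 against 4 in control replicate 1.

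Itga5 and Itga8 share β1 as a partner and moved in opposite directions. The 250 bases before their start sites are shown (RefSeq, GRCm38.p6, 5′ to 3′ on the strand of the gene). Capitals mark matches to any of 5 motifs on either strand, none of which contains another. These were GTCTAGAC and CAGAC (SMAD), TGANTCA (AP-1), GGAATG (TEAD) and GGGCGG (GC box).
Itga5 (chr15:103366792-103367041, minus strand): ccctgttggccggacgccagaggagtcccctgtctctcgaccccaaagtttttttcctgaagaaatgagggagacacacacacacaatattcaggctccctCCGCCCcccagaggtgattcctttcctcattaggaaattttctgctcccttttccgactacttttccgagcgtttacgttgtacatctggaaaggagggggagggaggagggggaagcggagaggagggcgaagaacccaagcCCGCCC
Itga8 (chr2:12301945-12302194, minus strand): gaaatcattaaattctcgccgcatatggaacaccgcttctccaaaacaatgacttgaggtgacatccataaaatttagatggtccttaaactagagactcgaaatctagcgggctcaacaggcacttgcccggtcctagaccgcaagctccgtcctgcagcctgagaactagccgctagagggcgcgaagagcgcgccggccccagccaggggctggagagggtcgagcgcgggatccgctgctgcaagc
The Itga5 window held 2 GC boxes and the Itga8 window no match to any of the 5. Among 32851 windows of this length, 32.7% held GGGCGG, 42.2% CAGAC, 12.6% GGAATG, 6.75% TGANTCA and 0.167% GTCTAGAC. Windows were given for 8 members. Itgb5 held 3 GC boxes, Itgb1 held 1 GC box, 3 CAGAC matches and 1 GGAATG, Itgb8 held 1 CAGAC, and Itgav and Itga2b held none. Of the Itgb6 windows, 1 held a CAGAC match. A match describes the letters only, and a link to the changes was not tested.

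Itgb1 encodes β1, the shared partner of most α chains (ENSMUSG00000025809, chromosome 8, 128685654 to 128733200). It was measured at 2133 and 2168 CPM in the controls and at 3431, 3435 and 3507 CPM with TGF-β1. All TGF-β1 libraries exceeded both controls, with a log2 fold change of 0.68 (SE 0.019, adjusted p = 6.49e-09). In the controls, 0.159% of tested genes had a higher CPM.

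Itgb5 encodes β5, the vitronectin-binding partner of αv that can activate latent TGF-β1 (ENSMUSG00000022817, chromosome 16, 33829665 to 33949338). Its values were 345 and 328 CPM in the controls and 550.4, 541 and 530 CPM with TGF-β1. The groups did not overlap, and the log2 fold change of 0.68 (SE 0.032, adjusted p = 2.16e-07) was the same as that of Itgb1 to 2 decimals.

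Itgb3 encodes β3, which with αv binds vitronectin, osteopontin and fibronectin (ENSMUSG00000020689, chromosome 11, 104608000 to 104670476). It was low in the controls, at 27.4 and 24.3 CPM, and stood at 135, 135 and 139 CPM with TGF-β1. This was the largest increase among the 8 tested chains, with a log2 fold change of 2.40 (SE 0.059, adjusted p = 3.45e-09), or 5.28-fold, and 0.83% of tested genes had a higher one. In the ranking by CPM, 39.6% of tested genes lay above it in the controls and 8.22% with TGF-β1.

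Itgb8 encodes β8, which with αv binds latent TGF-β without linking to actin (ENSMUSG00000025321, chromosome 12, 119158022 to 119238802). The controls had 576 and 580 counts and the TGF-β1 libraries 115, 177 and 164, or 16.2 and 13.8 against 2.86, 4.21 and 4.24 CPM. Every TGF-β1 library was below both controls, with a log2 fold change of −1.99 (SE 0.17, adjusted p = 1.35e-05), or 3.97-fold. TGF-β1 replicate 1 was the lowest.

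Itgb6 encodes β6, the epithelial partner of αv (ENSMUSG00000026971, chromosome 2, 60598292 to 60722643). It had 0 counts in all 5 libraries, which allows up to 3 counts per library, or 0.0695 to 0.0875 CPM by counting error alone. Of 10 epithelial markers, 5 were also at 0 (Sftpc, Sftpa1, Sftpb, Nkx2-1 and Scgb1a1), and Epcam and Krt5 each had counts in 1 library only. Ager had 38 to 75 counts in every library, and Foxj1 had 2 to 11 counts in all but TGF-β1 replicate 3. The 10 summed to 3.28 and 3.65 CPM in the controls and to 5.07 to 5.69 CPM with TGF-β1, most of it Cdh1, the E-cadherin gene, which rose.

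**Figure D2:**
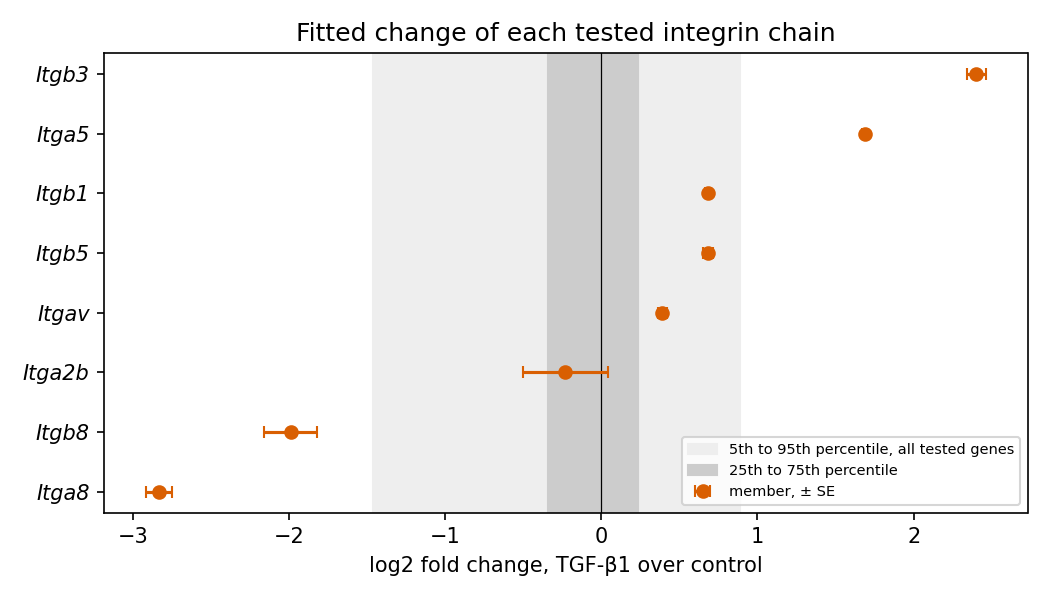
Log2 fold change of TGF-β1 over control (horizontal axis) for the 8 tested chains, as points with SE. The grey bands span the 5th to 95th and the 25th to 75th percentiles of all 16380 tested genes. Itgb3 at 2.40 and Itga5 at 1.69 lie above the wider band, and Itgb8 at −1.99 and Itga8 at −2.83 lie below it.

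Levels of different genes were compared as CPM per kilobase of merged exon. Itgb1 was the most abundant chain in every library, at 523 and 531 per kb in the controls and 841 to 859 per kb with TGF-β1. Next came Itga5 (238 and 243, then 773 to 777 per kb), Itgb5 (97.2 and 92.3, then 149 to 155 per kb) and Itgav (35.7 and 35.9, then 45.9 to 47.7 per kb). These 4 kept their order in all 5 libraries, with no overlap between neighbours. Below them, Itga8 stood above Itgb3 in both controls, at 9.88 and 8.95 against 4.65 and 4.11 per kb. With TGF-β1 the order was turned, with Itgb3 at 22.9 to 23.6 and Itga8 at 1.22 to 1.46 per kb. Itgb8 was above Itga2b in the controls (1.46 and 1.247 against 0.464 and 0.331 per kb), and their ranges overlapped with TGF-β1.

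The make-up of the α chain transcripts shifted towards α5. Among the 4 RGD-binding α chains, Itga5 made up 83.8% and 84.3% of transcripts per kb in the controls and 94.2%, 94.1% and 94.0% with TGF-β1. The share of Itgav went from 12.5% ± 0.0769 (SD, n = 2) to 5.70% ± 0.0965 (SD, n = 3), although its own level rose. The share of Itga8 went from 3.29% ± 0.264 to 0.160% ± 0.0154. Among the 12 α chains that can pair with β1, Itga5 held 61.9% and 63.0% in the controls and 85.8% to 86.0% with TGF-β1. Itga3, a laminin-receptor chain, was the next of these in the controls, at 13.1% ± 0.533, and held 3.29% ± 0.0149 with TGF-β1. No library of one group reached the range of the other in any of these shares.

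Itga5 drew closer to the level of its partner Itgb1. The ratio of their levels per kb was 0.456 and 0.458 in the controls and 0.904 to 0.922 with TGF-β1. All β1-pairing α chains together came to 0.731 ± 0.00706 of Itgb1 in the controls and 1.07 ± 0.0105 with TGF-β1. Transcript ratios are not ratios of protein at the surface.

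Among the β chains that can pair with αv, the shares moved by fewer percentage points, though the small shares of Itgb3 and Itgb8 changed strongly in proportion. Itgb1 held 84.0% ± 0.682 in the controls and 82.8% ± 0.370 with TGF-β1. Itgb5 held 15.1% ± 0.594 and 14.9% ± 0.393, and its groups overlapped. Itgb3 was at 0.743% and 0.654% in the controls and at 2.25%, 2.25% and 2.28% with TGF-β1. Itgb8 went from 0.216% ± 0.0250 to 0.0333% ± 0.00688. Set against each other, Itgb3 was 3.18 and 3.30 times Itgb8 per kb in the controls and 88.7, 60.0 and 61.4 times with TGF-β1. Set against αv, Itgb3 was 0.130 and 0.115 of Itgav in the controls and 0.484 to 0.500 with TGF-β1. Over 22 such shares and ratios compared, an exact two-sided permutation of 2 against 3 libraries gave p = 0.1 for all but the Itgb5 share (p = 0.6). That is the smallest p the design allows, and adjusted over the 22 it was 0.105.

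**Figure D3:**
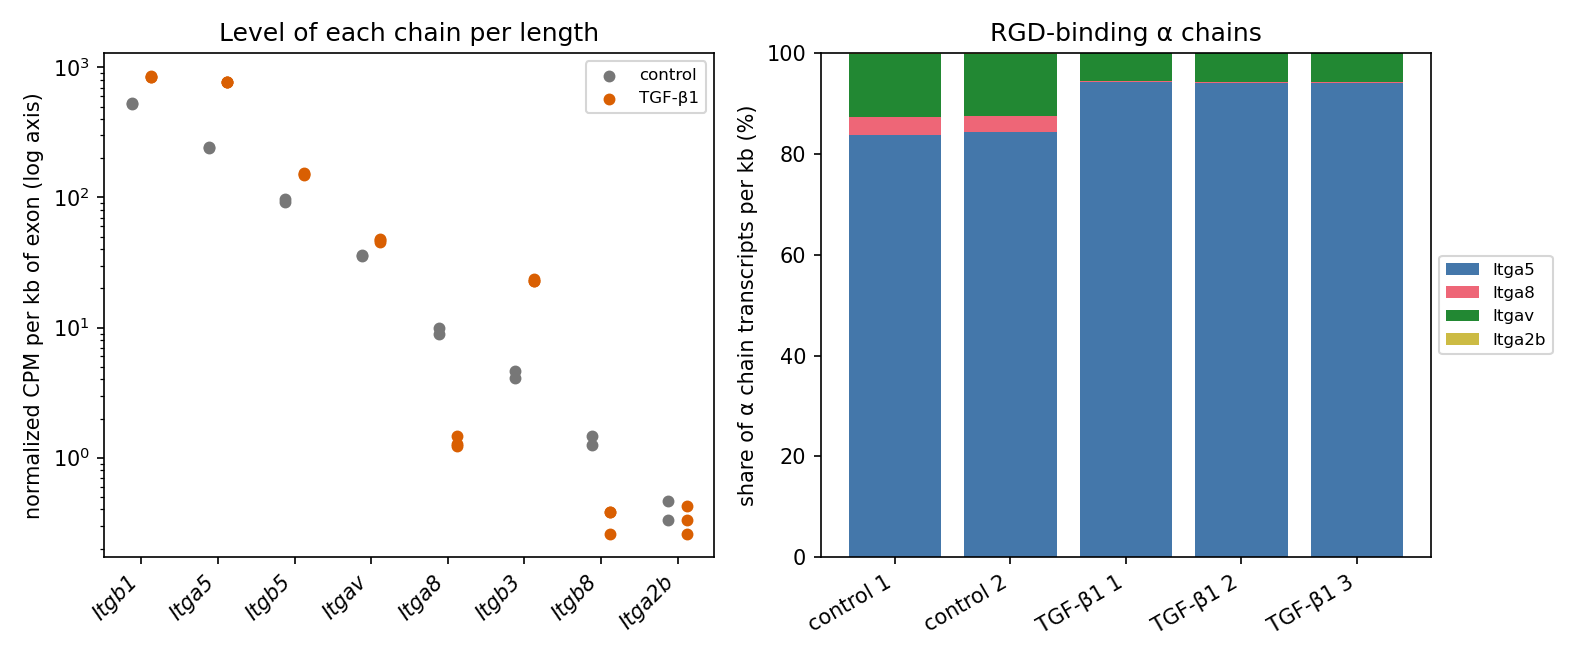
Left, level of each detected chain as normalized CPM per kb of exon (log axis) in control (grey) and TGF-β1 (orange) libraries, 1 point per library. Right, share of each of the 4 RGD-binding α chains in their transcripts per kb, 1 bar per library. Itga8 and Itgb3 change places on the left, and the Itga5 share grows from about 84.1% to 94.1% on the right.

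The genes whose pattern was most like that of a chain were found by the Euclidean distance of log2 CPM from the control mean over the 5 libraries, among 10927 other genes of at least 5 CPM. Closest to Itgb3 were Wnt11, a WNT ligand (distance 0.0931), Notch4, a NOTCH receptor (0.132), and Tmeff1 (0.162). Closest to Itga8 were Lpl, the lipoprotein lipase (0.119), Thsd4, a microfibril-associated protein (0.166), and C430049B03Rik (0.202). Closest to Itga5 were Tln2, encoding the integrin-activating adaptor talin 2 (0.0761), Cthrc1, a secreted collagen triple-helix protein of fibrotic fibroblasts (0.097), and Cplx2, a complexin (0.105). With 2 groups the distance mainly reflects a like fold change.

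Ligands of these integrins rose more often than they fell. Of the 22 listed, 17 were tested, of which 10 rose, 4 fell and 3 did not pass, with a median log2 fold change of 0.13. Over all genes tested, 21.3% rose and 23.2% fell at an adjusted p under 0.05. The lists were chosen with earlier results of these data known. Vtn, encoding vitronectin, and Fga, the fibrinogen α chain, had no count in any library. Tnc, the matricellular protein tenascin-C, was at 928 and 922 CPM in the controls and 3520, 3562 and 3725 CPM with TGF-β1 (log2 fold change 1.96, SE 0.027, adjusted p = 9.03e-11). Thbs2, thrombospondin 2, rose by a log2 fold change of 1.58 and Tgfbi, a TGF-β-induced adhesion protein, by 1.51. The widest change of the list was a fall, that of L1cam (log2 fold change −2.54), whose mean was under the 5 CPM needed for naming. Fbn2, also under it, and Fbln5 had log2 fold changes of −1.63 and −0.96. These falls were named after their values were seen. Fn1, the ligand of α5β1, was at 19534 ± 354 CPM (SD, n = 2) in controls and 20257 ± 151 CPM (SD, n = 3) with TGF-β1. Its log2 fold change of 0.05 (adjusted p = 0.0135) turned to −0.047 with library totals. It lost its call without TGF-β1 replicate 2 (adjusted p = 0.065) or with no filter on low counts (adjusted p = 0.0524).

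Npnt, the nephronectin that α8β1 binds, was singled out after its values were seen. It went from 159 and 160 CPM in the controls to 57.4, 60.3 and 66.3 CPM with TGF-β1, so that ligand and receptor chain were both lower (log2 fold change −1.38, SE 0.057, adjusted p = 1.06e-07). Spp1, osteopontin, did not pass (log2 fold change −0.08, adjusted p = 0.131), with overlapping groups.

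All 8 listed genes of latent TGF-β passed, 6 of them higher and 2 lower, with a median log2 fold change of 0.33. Among all genes tested 44.5% passed, 21.3% higher and 23.2% lower. Tgfb1 was at 75.8 and 71.0 CPM in the controls and 155, 156 and 153 CPM with TGF-β1 (log2 fold change 1.08, SE 0.042, adjusted p = 6.97e-08). Ltbp4, a latent TGF-β binding protein, rose by a log2 fold change of 1.08. Nrros, which presents latent TGF-β on myeloid cells, fell from 18.003 ± 0.440 to 8.42 ± 1.32 CPM (log2 fold change −1.10). The leukocyte marker sum, mostly Lyz2, was also lower but Ptprc rose, and a link to Nrros was not tested. Tgfb3, the other RGD-bearing latent form and named after its values were seen, fell slightly (log2 fold change −0.20, adjusted p = 0.000421).

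The adhesion machinery behind the integrins showed mostly small changes. Of 35 listed genes 34 were tested, of which 14 rose, 8 fell and 12 did not pass, with a median log2 fold change of 0.00. The shares over all genes tested were 21.3% higher and 23.2% lower. Tln2 rose from 33.5 and 32.0 to 105, 105 and 108 CPM (log2 fold change 1.70, SE 0.048, adjusted p = 7.78e-09), whereas its abundant paralog Tln1 did not pass (log2 fold change −0.04, adjusted p = 0.251), the latter named after its value was seen. Parvg, a parvin of blood cells, rose by a log2 fold change of 0.96 at 3.22 ± 0.251 and 6.28 ± 0.127 CPM. Lims2, the adaptor PINCH-2, fell from 89.4 ± 3.44 to 46.9 ± 8.40 CPM (log2 fold change −0.93).

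The remaining integrin chains, among them collagen-binding, laminin-binding and leukocyte chains, were more often lower than higher. Of 17 listed, 15 were tested, of which 4 rose, 8 fell and 3 did not pass, where 21.3% of all genes tested rose and 23.2% fell. The median log2 fold change was −0.41 beside 0.54 for the RGD-binding chains. That difference between the lists is a description and was not tested. Itgax and Itgal, the leukocyte chains CD11c and CD11a, rose by log2 fold changes of 2.80 and 1.12, while the leukocyte marker sum was lower. Itgb2 and Itgam, also leukocyte chains, fell by 0.30 and 0.92. Itga11, a collagen-binding chain of fibroblasts, rose by 0.94 (SE 0.057, adjusted p = 1.3e-06). The other collagen-binding chains Itga1, Itga2 and Itga10 fell by 0.90, 0.41 and 0.81. The falling chains were named after their values were seen.

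**Figure D4:**
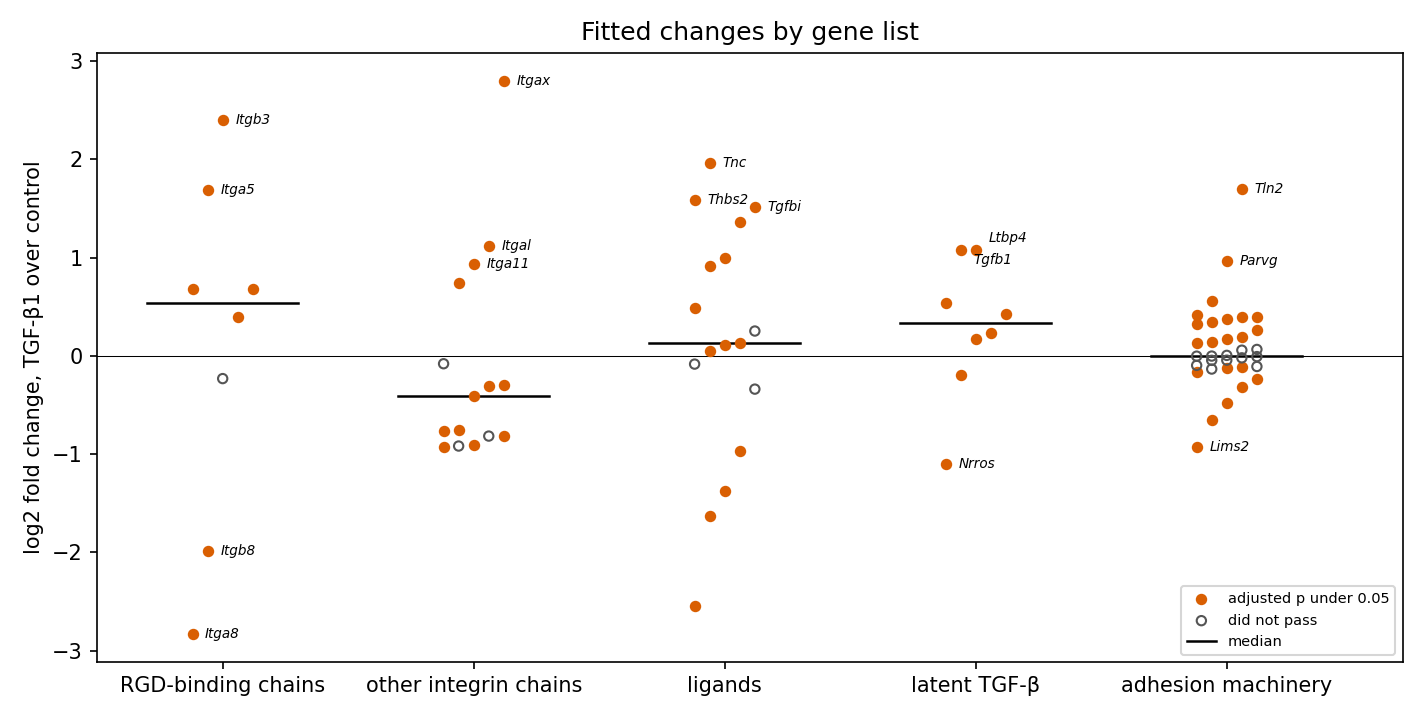
Log2 fold change of TGF-β1 over control (vertical axis) for each tested gene of 5 lists (horizontal axis). Filled points have an adjusted p under 0.05, open points did not pass, and the bars are list medians, from 0.54 for the RGD-binding chains to −0.41 for the other integrin chains. The genes named by rule with changes of at least 0.8 are labelled.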

How the data were processed

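The authors deposited 1 table of unnormalized whole-number counts per Ensembl gene for 5 libraries of primary mouse lung fibroblasts (polyA, strand-specific kit per the labels' protocols). Per the submitters' processing notes, STAR 2.5.3a, StringTie 1.3.1c and mm10 were used. The sources used here do not name the counting tool, its strand setting or the annotation release. Columns and groups followed the sample titles. IDs were matched to GENCODE M21 (GRCm38), and 181 of 55335 had no symbol.

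Genes were kept by filterByExpr, scaled by TMM and modelled on group alone. The quasi-likelihood F test of edgeR 4.0.16 was two-sided, adjusted after Benjamini-Hochberg for the 16380 genes kept, with a threshold of 0.05. The SE is the absolute log2 fold change over the root of F. Levels per kb divide normalized CPM by merged exon length. For the chains and the genes named by the rule below, a gene overlapping an exon at over 0.1 of the level would have made the value uncertain. None did. Other genes mentioned in the text were not checked in this way. The model was tested on simulated data with known changes. Same-numbered libraries of the groups did not deviate together (r = 0.0159 and 0.0161), so the replicate number served as a block only in an alternative.

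Named were all 9 chains, the 3 largest called changes per list at a mean of at least 5 CPM, Fn1 and Tgfb1. The members and lists were chosen with earlier results of these data known. A listed marker gene is not reported here. Alternatives were median-of-ratios and library-total scaling, no filter, over 1 CPM in 2 libraries, limma-voom (limma 3.58.1), DESeq2 1.42.0, the block, leaving out each library and, for shares, other gene lengths. The share of Itga5 among β1-pairing chains and its alternatives were added after seeing the data. Other software was Python 3.11.15 with numpy 2.4.6, scipy 1.17.1, pandas 2.3.3 and matplotlib 3.10.9, and R 4.3.3.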

Additional observations from a re-analysis of the deposited data

How the results depend on the processing

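The counts of 5 chains higher and 2 lower held under all 12 alternative fits, those without 1 library included, and Itga5, Itga8, Itgav, Itgb1, Itgb3, Itgb5 and Itgb8 each kept direction and call in all 12. With library totals 2325 genes of all tested were higher, against 3488 with TMM, and Fn1 turned to −0.047 on the log2 scale. Fn1 lost its call without the low-count filter (adjusted p = 0.0524) and without TGF-β1 replicate 2 (adjusted p = 0.065). Itga2b, at 59 to 93 counts per library, ranged from −0.46 without control replicate 2 to 0.028 without control replicate 1 and passed in none. The difference in the Itgb3 share of β chains, 1.56 percentage points, was 1.49 with the longest transcript as length and 2.27 with no division by length. That of the Itga8 share of α chains, −3.13 points, was −4.00 with no division. That of the Itga5 share of β1-pairing chains, 23.5 points, was 26.2 with the longest transcript and 27.8 with no division. With the replicate number as a block, 3538 genes were higher and 3727 lower, and the chains remained at 5 higher and 2 lower. No control carries replicate number 3, so the block fit in effect compared 2 libraries with 2. It thus nearly repeats the fit without TGF-β1 replicate 3, with an Itgb3 log2 fold change of 2.388 in both. The causes were not tested. Without 1 control, the single control left is assumed to vary like the TGF-β1 libraries.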
